A study of Mus musculus with 6 samples.

Results

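The genes described here are 9 core components of the Hedgehog pathway, read from primary mouse renal fibroblasts: the co-receptors Boc, Cdon and Gas1, the receptor Ptch1, the transducer Smo, the transcription factors Gli1, Gli2 and Gli3, and Hhip, a decoy that binds the ligand. They were taken by gene symbol, and all 9 were found among the 34745 genes of the count table. In fibroblasts cocultured with Th17 cells, Boc and Ptch1 rose and Cdon, Gas1 and Gli3 fell, while Smo and Gli2 did not pass the test. Boc nearly doubled (1.97-fold) and Cdon fell 3.97-fold. Gli1 and Hhip, which are transcribed in response to the pathway, were at or near 0 counts in both groups.

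RNA was sequenced from wild-type (WT) primary mouse renal fibroblasts, which were released from kidney with trypsin and collagenase IV and grown in fibroblast medium. The protocol given for the libraries of both groups has the seeded cells attach for 6 h. One group was cultured alone (3 libraries, no treatment). The other group then shared its medium for 24 h with induced Th17 cells held in an insert with 0.4 µm pores above it (3 libraries), after which only the fibroblasts below were collected. Th17 cells are the helper T cells that secrete interleukin-17, and here they were induced from spleen CD4+ T cells. The culture time of the fibroblasts kept alone, and whether replicate libraries derive from separate cultures or animals, were not given in the sources used here, so SD, SE and p-values measure the spread between these libraries, which may be technical.

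Hedgehog ligands bind Ptch1 together with a co-receptor (Boc, Cdon or Gas1), which frees Smo from the inhibition that Ptch1 exerts on it. Smo then acts in the primary cilium so that Gli2 and Gli3 are no longer processed into repressors and become activators, and Gli1, Ptch1 and Hhip are themselves transcribed in response. In the kidney the ligands come mainly from epithelium, and the surrounding mesenchymal cells, fibroblasts and pericytes among them, are the cells that respond.

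The total count per library lay between 12050529 and 13209581, so both groups were sequenced to a similar depth, and 3 counts corresponded to between 0.223 and 0.254 CPM, a count per sequencing depth with depth adjusted by the trimmed mean of M values (TMM). Fibroblast markers were abundant in every library. Their summed level was lower in coculture, at 14263 to 15969 CPM against 34156 to 36045 CPM in fibroblasts cultured alone. Most of it was Col1a1, Col1a2 and Col3a1 (means 15087, 12474 and 4368 CPM alone, 6235, 4626 and 962 in coculture). Of the 10 markers 9 were lower and 1, Dcn, was higher (2.83-fold). Pdgfra, Pdgfrb, Vim and Thy1 fell 1.27- to 1.44-fold, and Fbln1 and Lum 2.26- and 2.37-fold. The sum of 7 pericyte and smooth muscle markers was 2777 to 3536 CPM in coculture against 6879 to 7399 CPM alone, with 6 of 7 lower. Acta2 and Des made up most of this sum (means 5286 and 1315 CPM alone, 2426 and 312 in coculture). The other decreases ran from 1.23-fold (Myh11) to 5.37-fold (Rgs5). Cspg4 did not pass the test (mean 139 CPM alone, 157 in coculture). For scale, 20.0% of all genes tested were lower and 17.1% higher at an adjusted p below 0.05 by edgeR. The 11 T cell markers summed to 2.21 to 2.67 CPM in coculture and 4.27 to 5.53 CPM alone, and 6 of them, Cd3d, Cd2, Cd8a, Il17a, Il17f and Ccr6, were at 0 in all libraries. Most of that sum was Lck, the only 1 tested (3.81, 5.38 and 4.99 CPM alone, 2.46, 2.67 and 1.75 in coculture). Cd3e had 1, 1 and 0 counts alone and 0, 0 and 6 in coculture. The sums for 8 macrophage markers (16.3 to 18.3 against 28.9 to 32.5 CPM), 6 endothelial markers (2.06 to 3.07 against 6.80 to 8.04 CPM, Emcn at 0) and 8 epithelial markers (0.838 to 1.18 against 1.40 to 2.69 CPM, Umod, Slc34a1 and Aqp2 at 0) were also lower in coculture. Within these lists the markers did not all move together. Of the endothelial markers tested, Kdr fell (5.05, 5.85 and 5.75 CPM alone, 0.149, 0.0786 and 0.152 in coculture). Pecam1 did not pass the test (log2 fold change 0.10, adjusted p = 0.862 by edgeR). Tek, not tested, had 2, 3 and 3 counts alone and 8, 13 and 3 in coculture. Of 4 tested macrophage markers 3 fell, and Cd14 did not pass (mean 11.2 CPM in both groups). Adgre1 had 71, 47 and 55 counts alone and 0 in every cocultured library, and Csf1r and Cd68 fell 3.44- and 1.90-fold. The part of these marker shifts in the results below was not tested.

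Promoter sequence is shown for Ptch1, the component that is also a pathway target and rose, and for Gas1, a co-receptor that fell. RefSeq promoters (build GRCm38.p6) were matched for 7 of the 9 genes, all except Gli1 and Boc. The 250 bases before the annotated start are printed 5′ to 3′ on the gene's strand, with the GC box (GGGCGG, either strand) in capitals.
Ptch1, chr13:63565736-63565985, minus strand: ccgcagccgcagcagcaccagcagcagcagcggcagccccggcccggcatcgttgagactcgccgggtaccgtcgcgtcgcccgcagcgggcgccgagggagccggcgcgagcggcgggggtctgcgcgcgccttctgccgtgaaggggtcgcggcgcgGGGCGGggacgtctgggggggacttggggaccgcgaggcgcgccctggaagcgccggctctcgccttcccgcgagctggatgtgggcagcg
Gas1, chr13:60177536-60177785, minus strand: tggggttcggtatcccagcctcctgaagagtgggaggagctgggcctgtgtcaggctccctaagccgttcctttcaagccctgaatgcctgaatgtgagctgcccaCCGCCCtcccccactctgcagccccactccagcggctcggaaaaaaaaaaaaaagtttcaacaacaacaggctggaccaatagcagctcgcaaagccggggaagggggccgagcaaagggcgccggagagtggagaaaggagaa
The Ptch1 stretch lay within the gene's span, in an intron of longer transcripts, and held 41 CpG dinucleotides at a GC content of 78.4%. The Gas1 stretch lay outside the gene, overlapped the opposite-strand gene Gm48488, and held 10 CpG dinucleotides at 58.8% GC. In the full windows, which run from 250 bases before the start to 50 bases after it, the Gli site GACCACCCA was in none of the 7 promoters, against 0.253% of 32851 mouse promoters. Its core CCACCCA, which the longer site contains, was also in none of the 7, against 9.303% of all promoters. The AP-1 site TGANTCA (7.808% of all promoters) had no match in the 7 either, and the TEAD site CATTCC (14.663%) had 1 match, in Smo. A GC box was found in 35.658% of all promoters, and among the 7 it was present in Gli2, Gli3, Ptch1, Hhip and Gas1 and absent from Smo and Cdon. All motifs were searched on both strands. The RefSeq start of Cdon lay 30948 bases inside the gene, so its window is that of a shorter transcript.

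The comparison asked which components of the pathway change in fibroblasts exposed to Th17 cells. Of the 9 genes, 7 had enough counts to be tested, and 5 of them differed with an adjusted p below 0.05 in the quasi-likelihood test of edgeR (Benjamini-Hochberg adjustment over all 13088 genes tested). Among all genes tested, 37.1% passed the same threshold. Of the 7, 2 rose and 3 fell, beside 17.1% and 20.0% of all tested genes, and their median log2 fold change was -0.06, beside 0.0038 for all tested genes. With the fold change above 2 that the study's methods also required, 1 of the 7 remained, Cdon, which fell (11.6% of tested genes passed that rule, 7.78% lower and 3.87% higher). The 5 genes had CPM ranges that were separate between the groups, as was the case for 50.4% of all tested genes. In bulk RNA, fewer cells of a type and less RNA per cell cannot be told apart.

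**Figure D1:**
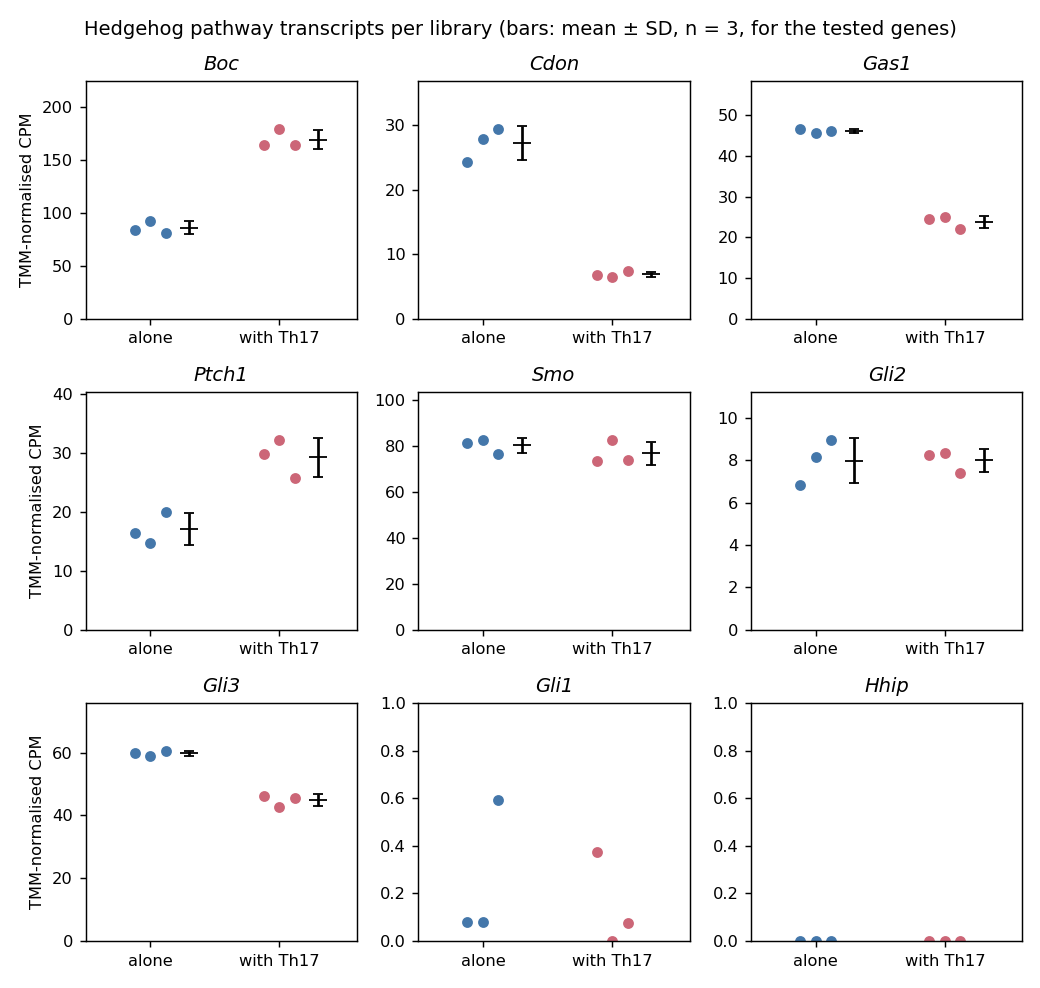
TMM-normalised CPM (vertical axes, linear from 0) of the 9 Hedgehog genes in the 3 libraries of fibroblasts cultured alone (blue points) and the 3 cocultured with Th17 cells (red points), with mean ± SD beside the points for the 7 tested genes. Boc and Ptch1 sat higher and Cdon, Gas1 and Gli3 lower in all cocultured libraries, Smo and Gli2 overlapped, and Gli1 and Hhip stayed below 1 CPM.

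Among the co-receptors, Boc, an immunoglobulin and fibronectin repeat protein that binds the ligand at the surface, moved upward. Boc (ENSMUSG00000022687, chr16:44485045-44558897, minus strand) was at 84.0, 92.7 and 81.0 CPM in fibroblasts cultured alone and at 164, 180 and 164 CPM in coculture. Every cocultured library was above every library cultured alone, with a wide gap between the groups. The mean went from 85.9 ± 6.06 to 169 ± 9.07 CPM (SD, n = 3), a log2 fold change of 0.98 (SE 0.0741, 95% interval 0.81 to 1.15, adjusted p = 9.79e-06 by edgeR). The rise of 1.97-fold lay just under the fold change of 2 and its interval, 1.75 to 2.21, held that value.

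Cdon is the closest relative of Boc and serves the same function in ligand binding. Cdon (ENSMUSG00000038119, chr9:35421128-35507652, plus strand) was at 24.3, 27.8 and 29.4 CPM alone and at 6.70, 6.53 and 7.31 CPM in coculture. The 3 cocultured libraries were close to each other and all far below the lowest library cultured alone. The mean fell from 27.2 ± 2.63 to 6.84 ± 0.412 CPM (SD, n = 3), a log2 fold change of -1.99 (SE 0.12, 95% interval -2.26 to -1.72, adjusted p = 2.17e-06 by edgeR). The fold decrease was 3.97 (3.29 to 4.79), the largest change among the 7 tested genes. These values rest on 83 to 96 counts per cocultured library and 313 to 352 counts per library cultured alone.

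Gas1 is a membrane-anchored co-receptor of a different protein family, named for its expression in growth-arrested cells. Gas1 (ENSMUSG00000052957, chr13:60174405-60177365, minus strand) was at 46.8, 45.6 and 46.1 CPM alone and at 24.4, 24.9 and 22.2 CPM in coculture. The libraries of each group lay close together and the groups were well apart. The mean fell from 46.2 ± 0.572 to 23.8 ± 1.47 CPM (SD, n = 3), a log2 fold change of -0.95 (SE 0.0817, 95% interval -1.14 to -0.77, adjusted p = 2.18e-05 by edgeR), or a 1.94-fold decrease (1.70 to 2.20). An annotated gene on the opposite strand, Gm48488, shares exon sequence with Gas1 and was not analysed here, and whether the counting used strand is not given in the sources used here.

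**Figure D2:**
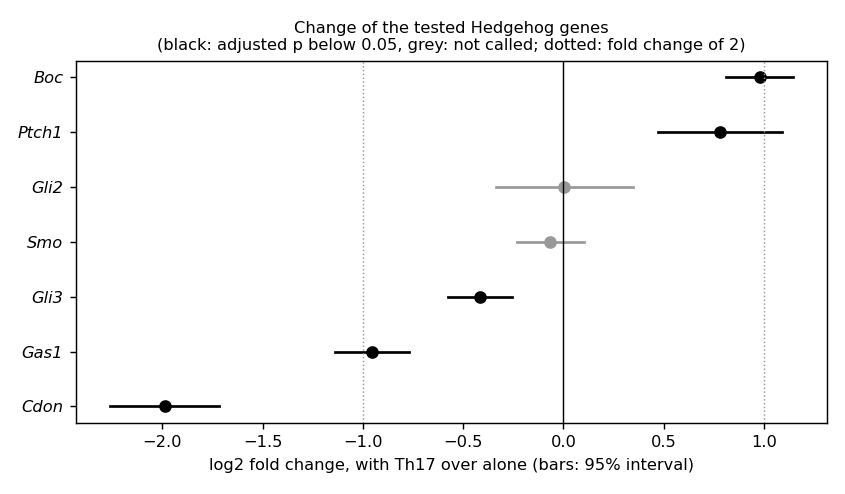
Log2 fold change of the 7 tested genes, with Th17 over alone (horizontal axis, points), with its 95% interval (bars). Black marks an adjusted p below 0.05 and grey no call, and only the interval of Cdon lies wholly past a fold change of 2 (dotted lines), with Boc and Gas1 close to those lines on either side.

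Because the co-receptors moved in opposite directions, their mix was compared on FPKM, the deposited count per gene length and sequencing depth, which allows levels of different genes to be set side by side. These values imply 1 fixed length per gene, such as 2961 bases for Gas1, 12364 for Cdon and 16688 for Ptch1. Levels and ratios between genes depend on these lengths, whichever transcripts were present. Boc FPKM was 14.0, 15.5 and 13.6 alone and 28.7, 31.3 and 28.9 in coculture. Gas1 FPKM was 15.4, 15.05 and 15.3 alone and 8.42, 8.54 and 7.69 in coculture, and Cdon FPKM was 1.92, 2.20 and 2.34 alone and 0.553, 0.535 and 0.608 in coculture. In fibroblasts cultured alone Boc and Gas1 were thus at overlapping levels, and in coculture Boc stood far above both of the others.

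The share of Boc in the summed FPKM of the 3 co-receptors was 44.8%, 47.4% and 43.6% in the libraries cultured alone and 76.2%, 77.5% and 77.7% in the cocultured libraries. The mean share of Boc went from 45.3% ± 1.92 to 77.1% ± 0.845, that of Gas1 from 48.0% ± 1.78 to 21.4% ± 0.883 and that of Cdon from 6.77% ± 0.685 to 1.48% ± 0.152 (SD, n = 3). The ratio of Boc to Cdon went from 6.74 ± 0.799 to 52.6 ± 5.41 (SD, n = 3). None of these quantities overlapped between the groups, and an exact two-sided permutation test gave p = 0.1 for each, the smallest that 3 against 3 libraries allows (11 levels, shares and ratios computed, adjusted p = 0.1). The summed FPKM moved less than the mix, from 31.8 ± 0.854 to 38.4 ± 1.68, and with TMM scaling the corresponding sum per kilobase went from 32.5 ± 0.905 to 37.6 ± 1.88 (SD, n = 3, exact permutation p = 0.1 for both).

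**Figure D3:**
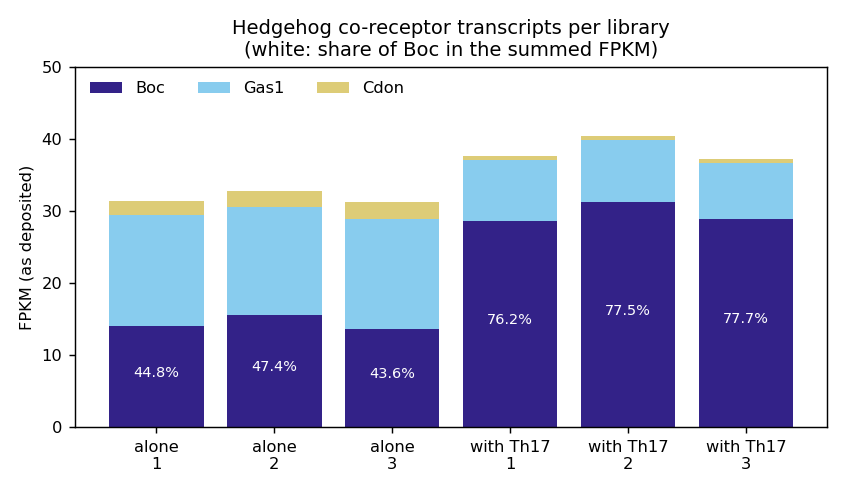
Deposited FPKM (vertical axis) of Boc, Gas1 and Cdon stacked for each of the 6 libraries, with the share of Boc in the sum printed in white. Boc makes up 43.6% to 47.4% of the sum in fibroblasts cultured alone and 76.2% to 77.7% in coculture, while the height of the bars changes less.

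Ptch1 is the receptor that holds Smo inactive in the absence of ligand, and its transcript is induced when the pathway is on. Ptch1 (ENSMUSG00000021466, chr13:63508328-63573598, minus strand) was at 16.5, 14.7 and 20.0 CPM alone and at 29.8, 32.2 and 25.7 CPM in coculture. The highest library cultured alone stayed below the lowest cocultured library. The mean rose from 17.0 ± 2.68 to 29.3 ± 3.29 CPM (SD, n = 3), a log2 fold change of 0.78 (SE 0.137, 95% interval 0.47 to 1.09, adjusted p = 0.00187 by edgeR), or 1.72-fold (1.39 to 2.13). On FPKM the level was low, at 0.962, 0.861 and 1.17 alone and 1.83, 1.96 and 1.58 in coculture.

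Smo, the membrane protein that passes the signal inward and the target of the Hedgehog inhibitors used in the clinic, did not pass the test. Smo (ENSMUSG00000001761, chr6:29735503-29761365, plus strand) was at 81.5, 82.7 and 76.7 CPM alone and at 73.6, 82.7 and 74.0 CPM in coculture. The groups overlapped, and the log2 fold change was -0.06 (SE 0.074, 95% interval -0.23 to 0.10, adjusted p = 0.531 by edgeR). The ratio of Smo to Ptch1 FPKM was 13.1, 14.9 and 10.2 alone and 6.55, 6.82 and 7.64 in coculture. All cocultured libraries had the lower ratio, with means of 12.8 ± 2.39 and 7.004 ± 0.567 (SD, n = 3, exact permutation p = 0.1).

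Of the transcription factors, Gli3, which acts mostly as a repressor when the pathway is off, decreased. Gli3 (ENSMUSG00000021318, chr13:15463235-15730026, plus strand) was at 59.8, 59.1 and 60.6 CPM alone and at 46.3, 42.6 and 45.5 CPM in coculture. The libraries cultured alone were nearly equal and all lay above the cocultured ones. The mean fell from 59.8 ± 0.763 to 44.8 ± 1.93 CPM (SD, n = 3), a log2 fold change of -0.42 (SE 0.0706, 95% interval -0.58 to -0.26, adjusted p = 0.00155 by edgeR), or 1.34-fold lower (1.20 to 1.49). The opposite-strand gene Gm6556, which shares exon sequence with Gli3, had 3 to 9 counts per library against 542 to 770 for Gli3.

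Gli2, the main activator of the family, was at 6.84, 8.14 and 8.97 CPM alone and at 8.26, 8.33 and 7.39 CPM in coculture. Gli2 (ENSMUSG00000048402, chr1:118834132-119053619, minus strand) thus overlapped between the groups, with a log2 fold change of 0.0034 (SE 0.15, adjusted p = 0.989 by edgeR). Its 95% interval, -0.34 to 0.34, left room for a change of up to 1.27-fold upward or 1.26-fold downward. The ratio of Gli3 to Gli2 FPKM was 6.19, 5.13 and 4.78 alone and 3.96, 3.62 and 4.35 in coculture. The lowest ratio in fibroblasts cultured alone was above the highest in coculture, with means of 5.36 ± 0.734 and 3.98 ± 0.368 (SD, n = 3, exact permutation p = 0.1).

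Gli1 (ENSMUSG00000025407, chr10:127329889-127341589, minus strand), the amplifying factor whose transcript is the standard readout of Hedgehog signalling, had 1, 1 and 7 counts in fibroblasts cultured alone and 5, 0 and 1 counts in coculture. The sums of 9 and 6 counts had exact 95% Poisson intervals of 4.12 to 17.1 and 2.20 to 13.1, which cover counting error only, so no difference was detectable at this depth. Without the filter on low counts, edgeR gave Gli1 a log2 fold change of -0.65 (adjusted p = 0.718). Exons of Gli1 overlap those of the opposite-strand gene Arhgap9, which had 0 to 6 counts per library. Hhip (ENSMUSG00000064325, chr8:79966115-80058006, minus strand) had 0 counts in all 6 libraries, where 3 counts is about the one-sided 95% limit that a count of 0 allows in each. For its sum of 0 in each group, the exact Poisson interval as used for Gli1 ran from 0 to 3.69.

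On FPKM the order in fibroblasts cultured alone was Gas1 (15.2 ± 0.174), Boc (14.4 ± 0.998), Smo (12.5 ± 0.464), Gli3 (5.64 ± 0.0848), Cdon (2.15 ± 0.214), Gli2 (1.06 ± 0.147), Ptch1 (0.999 ± 0.16) and Gli1 (0.0667 ± 0.0795), with Hhip at 0 (SD, n = 3). Gas1 and Boc overlapped, as did Gli2 and Ptch1, and the other neighbours in the order did not. In coculture the order was Boc (29.6 ± 1.42), Smo (12.5 ± 0.765), Gas1 (8.22 ± 0.46), Gli3 (4.41 ± 0.212), Ptch1 (1.79 ± 0.19), Gli2 (1.11 ± 0.0675), Cdon (0.565 ± 0.0375) and Gli1 (0.0417 ± 0.0548). Only Gli1 and Hhip, the lowest neighbours in that order, overlapped. Cdon went from above Ptch1 and Gli2 to below both of them, and Gas1 from level with Boc to below Smo.

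Since Gli1 could not be tested, likeness was taken from Ptch1. The 5 tested genes whose log2 CPM, centred on each gene's mean, lay closest to that of Ptch1 over the 6 libraries were Fam35a, Nyap1, Rassf3, Rnf157 and Dock8. Their root mean square distances were 0.0475, 0.0532, 0.0636, 0.0723 and 0.0749 on the log2 scale, in that order.

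The ligands and the proteins that release them were next. Shh had 0 counts in all 6 libraries. Ihh had 1 count in 1 cocultured library and none elsewhere, and Dhh had 3, 0 and 0 counts alone and 1, 0 and 0 in coculture. Ligand transcripts were therefore at or under the floor of 3 counts in each library of the fibroblasts, and none of the 3 was tested. Dhh shares exons with Rhebl1 on its own strand, so even its few counts are of uncertain origin.

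Of the 9 ligand and release genes, 5 were tested, none rose and 1 fell (17.1% and 20.0% of all tested genes), with a median log2 fold change of -0.06. The gene that fell was Scube3, a secreted protein of the Scube family that helps carry the lipid-modified ligand away from the cell. It had 17, 21 and 17 counts alone and 2, 4 and 2 in coculture, a log2 fold change of -2.80 (SE 0.422, adjusted p = 0.000801 by edgeR). Scube3 shares exon sequence with an opposite-strand gene, AC126937.2, which was not analysed here. Its relative Scube2 had 7, 1 and 1 counts alone and 0 in every cocultured library and was not tested. Hhat, the acyltransferase that attaches palmitate to the ligand, and Disp1, the transporter that exports it, had log2 fold changes of 0.26 and -0.06 (adjusted p = 0.15 and 0.652 by edgeR), and the adjusted p of Disp2 and Scube1 was 0.992 and 0.853.

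Of 22 genes of signal relay and inhibition, 21 were found and tested. Among them 2 rose and 2 fell, beside 17.1% and 20.0% of all tested genes (37.1% in all), and the median log2 fold change was 0.0026. Both decreases were in cell-surface proteins. Gpc3, a glypican that competes with Ptch1 for ligand, had 89, 90 and 93 counts alone and 3, 8 and 3 in coculture, a log2 fold change of -4.32 (SE 0.317, adjusted p = 7.92e-06 by edgeR). Lrp2 (megalin), an endocytic receptor that takes up ligand, had 49, 38 and 27 counts alone and 8, 4 and 11 in coculture, a log2 fold change of -2.36 (SE 0.371, adjusted p = 0.001 by edgeR).

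The increases were small. Sufu, the inhibitor that holds Gli proteins in the cytoplasm, had 512, 442 and 424 counts alone and 659, 556 and 539 in coculture, a log2 fold change of 0.27 (SE 0.0942, adjusted p = 0.0471 by edgeR). Grk2, the kinase that phosphorylates active Smo, had 1155, 1160 and 1059 counts alone and 1435, 1427 and 1292 in coculture, a log2 fold change of 0.23 (SE 0.0684, adjusted p = 0.0279 by edgeR). Both calls were lost without alone replicate 2, alone replicate 3, Th17 replicate 1 or Th17 replicate 2 (adjusted p from 0.0571 to 0.148), and that of Grk2 also without alone replicate 1 (0.0743). DESeq2 (adjusted p = 0.0675) and edgeR with no filter on low counts (0.0587) also ended the call of Sufu. Arrb1, a beta-arrestin linked to Smo transport, varied within groups, with 160, 19 and 44 counts alone and 199, 92 and 152 in coculture (log2 fold change 0.92, SE 0.576, adjusted p = 0.245 by edgeR). Without alone replicate 1, the library with 160 counts, its log2 fold change was 2.11 (adjusted p = 0.00774).

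Vertebrate Hedgehog signalling runs through the primary cilium, and 23 genes of ciliary structure and transport were tested. Of these, 4 rose, 3 fell and 16 did not pass, and the median log2 fold change was -0.09. With 7 of 23 called, beside 37.1% of all tested genes (17.1% higher and 20.0% lower), the share was near that of genes at large. Tulp3, an adaptor that carries receptors such as Gpr161 into the cilium, had 1005, 983 and 996 counts alone and 1512, 1503 and 1380 in coculture, with a log2 fold change of 0.48 (SE 0.071, adjusted p = 0.000672 by edgeR). Cep164, a protein of the basal body needed to start a cilium, and Kif3b, a motor subunit of anterograde transport, had log2 fold changes of 0.58 and 0.34 (adjusted p = 0.0052 and 0.00727 by edgeR). Tmem67, a membrane protein of the ciliary transition zone, had 166, 195 and 161 counts alone and 90, 90 and 86 in coculture, with a log2 fold change of -1.04 (SE 0.128, adjusted p = 0.000226 by edgeR). Tmem67 overlaps the opposite-strand gene Rbm12b2, which had 76 to 121 counts per library.

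Ift172, an intraflagellar transport subunit, fell with a log2 fold change of -0.42 (SE 0.0935, adjusted p = 0.00693 by edgeR). The calls of Iqce, which tethers the Evc complex that acts below Smo, and of Bbs1, a subunit of the BBSome cargo coat, were the weakest (log2 fold change 0.44 and -0.51, adjusted p = 0.0366 and 0.0417 by edgeR). Both were lost without any 1 of the libraries cultured alone and without Th17 replicate 2 (adjusted p from 0.072 to 0.121), Iqce also without Th17 replicate 1 (0.093) and Bbs1 also without Th17 replicate 3 (0.0619). DESeq2 and library size scaling also ended the call of Bbs1 (0.162 and 0.0646). Dync2h1, Ift88, Evc, Evc2, Arl13b and Kif3a were among the genes that did not pass. Inpp5e lay at the threshold (log2 fold change 0.31, adjusted p = 0.0504 by edgeR) and passed in 6 of 15 other analyses. Kif3a and Ift140 passed only without Th17 replicate 3 (adjusted p = 0.0419 and 0.0466 by edgeR).

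**Figure D4:**
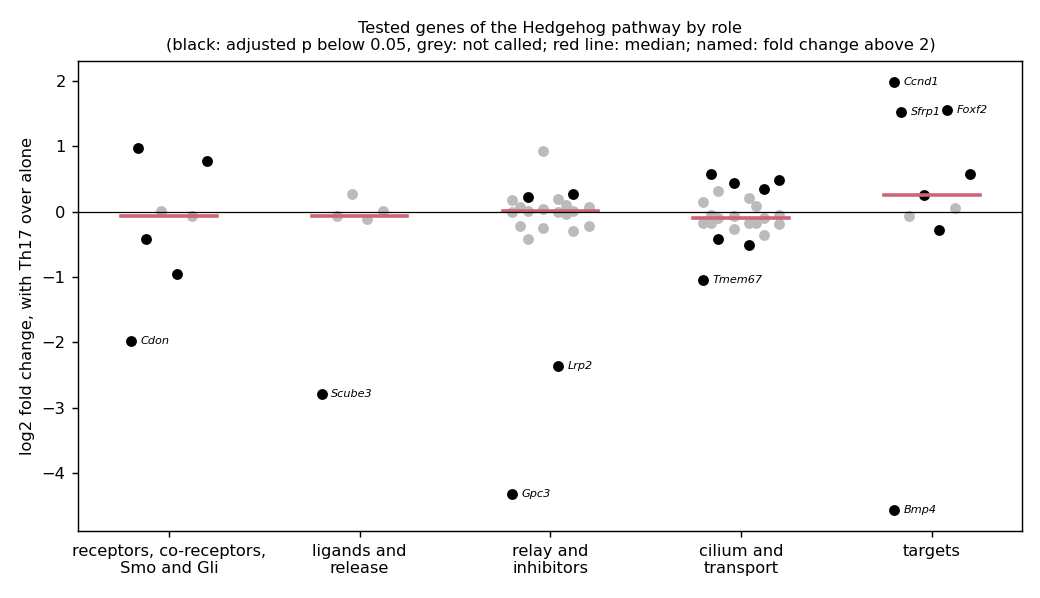
Log2 fold change, with Th17 over alone (vertical axis), of each tested Hedgehog gene by role, with black for an adjusted p below 0.05, grey for no call, a red line at the median of each list, and names for genes past a fold change of 2. Most relay and cilium genes lie near 0, while Cdon, Scube3, Lrp2, Gpc3, Tmem67 and Bmp4 lie below -1 and Ccnd1, Foxf2 and Sfrp1 above 1.

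Of 12 genes described as Hedgehog targets in mesenchyme or in many tissues, apart from Gli1, Ptch1 and Hhip, 9 were tested. Among them 5 rose and 2 fell (17.1% and 20.0% of all tested genes), 3 and 1 of them past a fold change of 2 (3.87% and 7.78% of all tested genes), and the median log2 fold change was 0.25, beside 0.0038 for all tested genes. All of these genes also respond to other signals. Ccnd1, the cyclin that drives entry into the cell cycle, had 1198, 1155 and 1067 counts alone and 4895, 4775 and 4514 in coculture, a log2 fold change of 1.98 (SE 0.0609, adjusted p = 4.57e-08 by edgeR). Foxf2, a forkhead factor of mesenchyme next to epithelium, had 153, 168 and 110 counts alone and 489, 424 and 411 in coculture, a log2 fold change of 1.55 (SE 0.137, adjusted p = 2.73e-05 by edgeR).

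Sfrp1, a secreted inhibitor of Wnt ligands, had 146, 147 and 160 counts alone and 480, 435 and 464 in coculture, a log2 fold change of 1.53 (SE 0.102, adjusted p = 4.08e-06 by edgeR). For Ccnd1, Foxf2 and Sfrp1 every cocultured library was well above any library cultured alone. Nr2f2, a nuclear receptor of mesenchyme, rose with a log2 fold change of 0.58 (SE 0.085, adjusted p = 0.000702 by edgeR), and Ccnd2, a cyclin of the same class as Ccnd1, with one of 0.25 (SE 0.0625, adjusted p = 0.0121 by edgeR). The call of Ccnd2 was lost without alone replicate 2 (adjusted p = 0.0538).

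The target list also held genes that fell. Bmp4, a secreted ligand of the bone morphogenetic protein family, had 103, 108 and 112 counts alone and 8, 2 and 4 in coculture (log2 fold change -4.57, SE 0.311, adjusted p = 4.71e-06 by edgeR). Foxf1, the closest relative of Foxf2, had 545, 593 and 566 counts alone and 487, 476 and 507 in coculture, a log2 fold change of -0.29 (SE 0.0803, adjusted p = 0.02 by edgeR), a call that was lost without alone replicate 2, alone replicate 3 or Th17 replicate 1 (adjusted p = 0.081, 0.0884 and 0.0629). Library size scaling also ended the call of Foxf1 (adjusted p = 0.0539 by edgeR). The forkhead gene Foxl1 was below the filter, with 4, 2 and 0 counts alone and 10, 9 and 14 in coculture, and without the filter its log2 fold change was 2.32 (adjusted p = 0.0298 by edgeR). Bcl2, an inhibitor of cell death, and Snai1, a repressor of epithelial genes, had log2 fold changes of -0.07 and 0.06 and did not pass (adjusted p = 0.768 and 0.829 by edgeR), and Mycn and Jag2 had too few counts to be tested. Several of these genes share exons with an opposite-strand gene, among them Ccnd1, Foxf1, Foxf2, Bmp4, Nr2f2 and Ccnd2.

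The changes of the 7 tested components were recomputed under 15 other analyses. The log2 fold change of Boc lay between 0.93 and 1.04, that of Ptch1 between 0.48 and 0.91, that of Gas1 between -0.99 and -0.82, that of Gli3 between -0.44 and -0.30 and that of Cdon between -2.07 and -1.01. The 5 calls held in each of the 15, and Smo and Gli2 passed in none. The smallest changes of Ptch1, Cdon, Gas1 and Gli3 came from limma on log2(FPKM + 1). In that setting the added 1 shrinks the change of genes at low FPKM. Because Boc lay so close to the limit, it passed a fold change of 2 in 5 of the 15, among them without alone replicate 2 (log2 fold change 1.04), without Th17 replicate 1 (1.002) and without Th17 replicate 3 (1.0004).

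**Figure D5:**
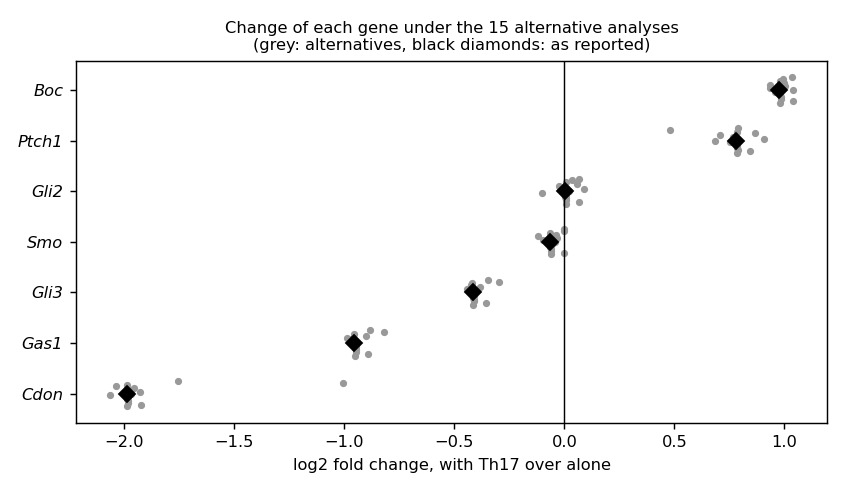
Log2 fold change, with Th17 over alone (horizontal axis), of the 7 tested genes in the reported analysis (black diamonds) and in 15 alternative analyses (grey points). Boc and Ptch1 stay above 0 and Cdon, Gas1 and Gli3 below 0 in all of them, and the point of Cdon near -1 is limma on log2(FPKM + 1).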

How the data were processed

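RNA was measured in 6 libraries, 3 of fibroblasts cultured alone and 3 cocultured with Th17 cells, grouped by the titles and treatment labels. Per the study's methods and the submitters' processing notes, the authors used Seqtk for read filtering and HISAT2 2.0.4 for alignment to mm10, and obtained fragment counts per gene with StringTie 1.3.3b. The deposited table holds these raw counts and, beside them, FPKM values scaled by the authors to gene length and library total. Whether strand was used and how fragments matching several genes were assigned is not given in the sources used here. Gene positions are those of the table (GRCm38), and exon overlaps were read from GENCODE vM21.

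Counts were analysed as deposited in R 4.3.3 with edgeR 4.0.16: filterByExpr (minimum count 10), TMM, glmQLFit and glmQLFTest on group, and Benjamini-Hochberg adjustment over the 13088 genes kept. A gene rose or fell at an adjusted p below 0.05. The biological coefficient of variation was 11.6%. The SE is the log2 fold change divided by the square root of F. Same-numbered libraries of the 2 groups showed no sign of pairing (correlations of deviations 0.0157, -0.0256 and -0.0036), but the sources used here do not state how replicates were made. No library was a copy of another (chi-square per gene at least 6.38 between libraries of a group). Alternatives were other scalings, DESeq2 1.42.0, other filters, a replicate block, omission of each library, limma 3.58.1 on log2(FPKM + 1) and log2(FPKM + 0.1), glmTreat and no fold change limit. On counts simulated for 13088 genes with 200 changed, edgeR recovered 80% of genes changed 2-fold and 94% of those changed 4-fold. It called 10 unchanged genes. The 200 were split evenly up and down, while 37.1% of tested genes passed in these data, so these rates may not hold here. Medians and counts of lists are given without a set test. The members, lists, tests and alternatives were chosen with earlier results of these data known. The genes named are the 9 members, members of the lists (always up to 3 called genes with the largest change in each direction), and the 5 genes most like Ptch1. Grk2 was found under its older symbol Adrbk1 and Mosmo was not analysed here. Certain genes of these lists are not reported here and were left out of the counts of their lists. Motifs were searched in Python 3.11.15 (pandas 2.3.3, matplotlib 3.10.9 for figures). The Poisson intervals and the floors cover counting error only. The intervals of fold changes rest on the SE of edgeR, so they also include the spread between libraries.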

Additional observations from a re-analysis of the deposited data

How the results depend on the processing

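The counts of 2 members higher and 3 lower were the same under every alternative, and all 105 values of the 7 tested members (15 alternatives each) kept their side of the threshold. Past a fold change of 2, where 0 members rose and 1 fell, the count of higher members was 1 both for library size scaling and for limma on log2(FPKM + 0.1), 0 to 1 when a library was left out, and 2 with no fold change limit, which also gave 3 lower; glmTreat gave 0 and 1. Of 864 values of the 58 other pathway genes, 812 kept their side, 33 lost a call (6 genes) and 19 gained one (9 genes), with no called value reversed. With at least 10 counts in every library the ligand and release genes called lower went from 1 to 0 and the relay genes called lower from 2 to 0, since Scube3, Gpc3 and Lrp2 are then not tested, and the targets called lower from 2 to 1, since Bmp4 is not tested. Without a composition factor (library size only), 4 relay genes were higher (2 as reported) and 1 target was lower. DESeq2 and the fit with no filter on low counts each gave 1 relay gene higher. Leaving out 1 library at a time gave 0 to 3 relay genes higher, 3 to 7 cilium genes higher (4 as reported) and 1 to 2 targets lower. Over all genes, 53.8% of calls were lower, against 43.9% for library size scaling and 44.2% for limma on log2(FPKM + 1). With the replicate block, 4513 genes passed against 4856 without it, and the members called were 2 higher and 3 lower as before. With the block Iqce and Bbs1 no longer passed (adjusted p = 0.052 and 0.0653 by edgeR) and Arrb1 did (log2 fold change 1.19, adjusted p = 0.0356), so that 3 cilium genes were higher and 2 lower (4 and 3 without it) and 3 relay genes were higher (2 without it). Deviations of same-numbered libraries correlated at 0.0157, -0.0256 and -0.0036. Depth limits Gli1, Hhip and the ligands, which had too few counts for a test. With 3 libraries a group, no permutation test can go below 0.1.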
